A study of Mus musculus with 2 samples.

Results

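The mitochondrial respiratory chain subunits encoded in the nucleus were examined in RNA of whole mouse ureters at E16.5. Members were the array probes whose gene name in the scanner files marks a subunit of NADH dehydrogenase (Nduf), succinate dehydrogenase (Sdh), the cytochrome bc1 complex (Uqcr), cytochrome c oxidase (Cox4 to Cox8) or ATP synthase (Atp5). They comprised 124 of 39429 probes and 85 of 29982 genes, of which 35 belong to complex I, 4 to complex II, 8 to complex III, 20 to complex IV and 18 to complex V. By name alone the rule also took in Cox7a2l, a factor for the joining of complexes, Atp5s and Atp5sl, which RefSeq lists as Dmac2l and Dmac2, and the pseudogene Atp5c1-ps. On both arrays 84 of the 85 genes exceeded the background clearly in RNA A or RNA B (defined below) and were tested among 21429 genes. The exception was Cox8c.

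The chain passes electrons from NADH and succinate through its complexes to oxygen, and complex V uses the resulting proton gradient to make ATP. Catalytic subunits carry flavins, iron-sulphur clusters or hemes or form the rotary motor, and many accessory subunits stabilise the complexes. Several subunits of complex IV have a widespread isoform and another that is typical of muscle, lung or testis. PPARG, the nuclear receptor encoded by Pparg, regulates lipid metabolism and works with coactivators that are also known to drive mitochondrial genes.

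The comparison asked whether these transcripts differ between ureters with and without Pparg in the epithelium. Pparg-cKO embryos were Pax2-cre/+; Pparg(fl/fl), controls were Pparg(fl/?) littermates without cre, and all were of the NMRI strain at E16.5, although the stage label of the second channel names an earlier day. Pax2-cre is active in the nephric duct and the ureteric epithelium derived from it, so the mesenchyme in these whole ureters keeps the gene. Ureters were pooled by sex, and each of 2 dual-colour arrays held a pool of either genotype, female on array 1 and male on array 2. With 1 pool per genotype and array, p-values measure only the spread between these arrays, and dye and sex change together and cannot be told apart.

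Which dye carried which genotype is not settled, because the labels oppose the direction that the study gives. RNA A is therefore the RNA in red (AlexaFluor647) on array 1 and in green (AlexaFluor555) on array 2. It is control by the labels and Pparg-cKO by the direction of the study, and RNA B is the other. Every ratio below divides RNA A by RNA B and is on the log2 scale, so that negative values mean brighter in RNA B, and their sign in terms of genotype is open. Pparg itself, read by 1 probe, gave 0.60 on array 1 and 0.71 on array 2 (limma, adjusted p = 0.615). The place of this probe relative to the deleted exons was not examined, so the value does not check the labels.

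The probes that the main values rest on are given by the first 30 of their 60 bases, with the position on mm9, the build of the array design. They are shown because they read the lowest member (Cox5a), the highest (Cox6a2), the highest of complex I (Ndufc2), the pair that turned with the arrays (Cox4i1, Ndufb8), and the gene whose probes pointed opposite ways (Ndufb11). No base is marked by capitals.
Cox5a, chr9:57379593-57380141, plus strand: cccttcgatgggcttcctaaggacttaact
Cox6a2, chr7:135349160-135349219, minus strand: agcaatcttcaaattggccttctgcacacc
Ndufc2, chr7:104556135-104556194, plus strand: aaacctatgctgaaattcttgagccattct
Cox4i1, chr8:123197924-123197983, plus strand: aagcgaatgctggacatgaaggccaacccc
Ndufb8, chr19:44624855-44627199, minus strand: taccagcctgtgggtccgaagcagtaccct
Ndufb11, probe 1, chrX:20192453-20192512, minus strand: tcatccgctgcttgttatttacctggttcc
Ndufb11, probe 2, chrX:20194630-20194689, minus strand: ttccctacagggccatctagatgtcaccgc
Probes of different members share no stretch longer than 12 bases.

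Respiratory chain transcripts were close to equally bright in both RNAs. The mean log2 ratio of the 84 members had a median of 0.0083, against 0.0067 over all 21429 genes, and ran from -0.17 for Cox5a to 0.34 for Cox6a2. For 83 of the 84 members (98.8%) the mean lay within 1.2-fold, against 85.8% of all genes, and for 75 members (89.3%) within 1.1-fold, against 63.1%. The standard deviation of the means over genes was 0.088 among members and 0.23 over all genes. Among genes with a mean log2 signal of at least 12, which 73 of the members reached, it was 0.077 for members and 0.13 for 3509 other genes, and 96.8% of those other genes lay within 1.2-fold and 78.9% within 1.1-fold. A spread as narrow was not particular to the members. The standard deviation was 0.079 over genes of the mitochondrial ribosome, 0.076 over those of the cytoplasmic ribosome and 0.063 over those of the tricarboxylic acid cycle.

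No member passed the fold change filter, which asked each of the arrays to reach 1.5-fold, both toward the same RNA, at a signal of 100 or more. It was passed by 0.219% of all genes toward RNA A and by 0.322% toward RNA B. At 1.2-fold the members also numbered 0, against 0.929% and 1.24% of all genes. By limma with Benjamini-Hochberg adjustment 0 members were called, where 0.126% of all genes were called toward RNA A and 0.187% toward RNA B. At an unadjusted limma p under 0.05 there were again 0 members, against 1.68% and 2.1% of all genes, and the lowest unadjusted p was 0.175 for Cox6a2 (adjusted p = 1.00). The precision sets how far this reaches. The limma 95% interval of the mean lay within 1.5-fold in both directions for 74 members (88.1%) and for 52.2% of all genes, and reached a median of 0.45 to either side of the mean for the members. In data simulated with the spread between the 2 arrays measured over all genes, limma recovered 0% of genes changed by 1.5-fold and the fold filter 7%. The difference between the arrays divided by 2 had an SD of 0.13 over members and 0.25 over all genes. These shares are thus not the recovery of the members. The counts of 0 by adjusted p and by the 1.5-fold filter say little about differences of 1.5-fold or less. Recovery at an unadjusted p under 0.05 or by the 1.2-fold filter was not simulated.

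**Figure D1:**
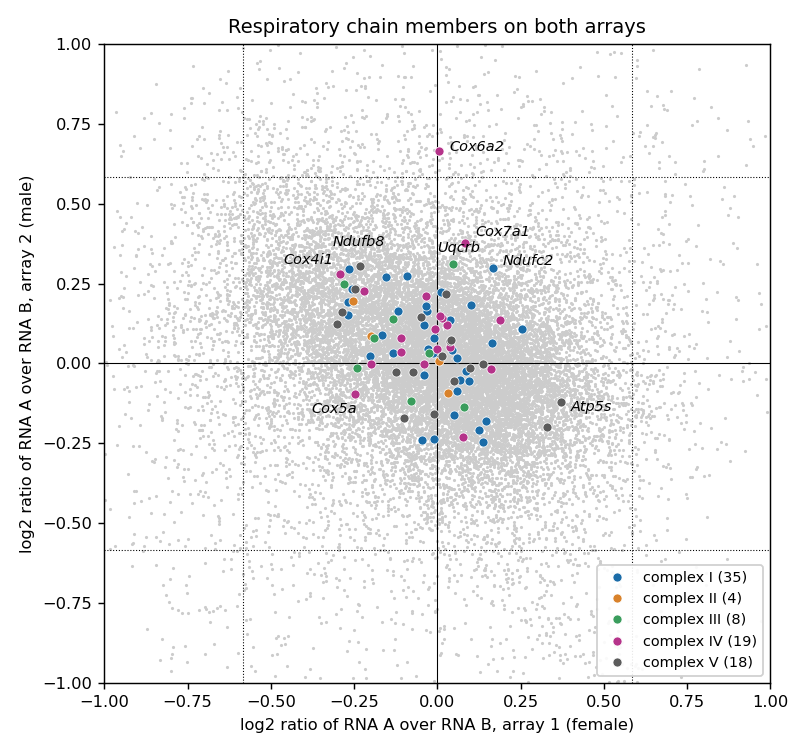
Each point is a gene, placed by its log2 ratio of RNA A over RNA B on array 1 (female pools, horizontal axis) and array 2 (male pools, vertical axis). Grey points are all genes tested within the axes, coloured points the 84 members by complex, and dotted lines mark 1.5-fold; no member lies beyond 1.5-fold on both arrays, and Cox6a2 alone lies beyond it on array 2.

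The ratios of the members differed between the arrays. Their median was -0.010 on array 1 and 0.066 on array 2. Over the 84 genes Pearson's r between array 1 and array 2 was -0.35, a description of genes that share the same 4 RNA pools. It was -0.055 over all genes and, among genes with a mean log2 signal of at least 12, -0.42 for members and -0.47 for other genes, so a negative r was not particular to the members. Of the members, 34 were brighter in the green dye on both arrays (40.5%, all genes 32.6%), 17 in the red dye (20.2%, all genes 28.4%), 21 in that of RNA A (25.0%, all genes 21.6%) and 12 in that of RNA B (14.3%, all genes 17.4%). The difference between the arrays divided by 2 had a median of -0.047 for the members and -0.013 for all genes. The SD between arrays, which hold separate pools in exchanged dyes, had a median of 0.13 over members, and the SD over the spots of 1 member probe, which is technical error alone, had a median of 0.028 on either array.

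Complex I takes electrons from NADH at the tip of its matrix arm. Its 35 members had a median of -0.010 on array 1, 0.063 on array 2 and 0.015 in the mean. RNA A was the brighter on both arrays in 8 of them (all genes 21.6%) and RNA B in 3 (all genes 17.4%).

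The highest was Ndufc2, an accessory subunit of the membrane arm. On array 1 its signal was 16836 (RNA A) against 14991 (RNA B), and on array 2 it was 19544 against 15903. RNA A was the brighter on either array, with log2 ratios of 0.17 and 0.30 and a mean of 0.23 ± 0.092 (SD, n = 2; adjusted p = 1.00 by limma). Ndufa6, an accessory subunit of the matrix arm, followed with 0.26 and 0.11 and a mean of 0.18 ± 0.11 (SD, n = 2). The lowest of the complex was Ndufv1, which carries the flavin where NADH is oxidised. Ndufv1 read 14489 (RNA A) against 14946 (RNA B) on array 1 and 14478 against 17082 on array 2. RNA B was the brighter both times, by little on the first, and the mean was -0.14 ± 0.14 (SD, n = 2). Ndufa7, also of the matrix arm, had -0.0097 and -0.24 and a mean of -0.12 ± 0.16 (SD, n = 2).

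The 7 core subunits of complex I, the conserved catalytic ones, had a median of -0.042. In 6 of them the mean was below 0, as in 8 of the 28 other members of the complex (all genes 48.1%). Ndufs1, the large iron-sulphur subunit, had a mean of -0.056 ± 0.15 (SD, n = 2). The iron-sulphur or linking subunits Ndufs3, Ndufs8 and Ndufv2 had means of -0.038 ± 0.33, -0.042 ± 0.23 and -0.013 ± 0.10 (SD, n = 2). The exception was Ndufs7, which holds the last iron-sulphur cluster before the quinone, with -0.092 and 0.27 and a mean of 0.091 ± 0.26 (SD, n = 2). In each of these 5 the SD between arrays exceeded the size of the mean. The 17 genes of the matrix arm had a median of -0.013 and ranged from -0.14 to 0.18. The remaining members of the complex had means between -0.089 (Ndufb9) and 0.14 (Ndufa12).

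**Figure D2:**
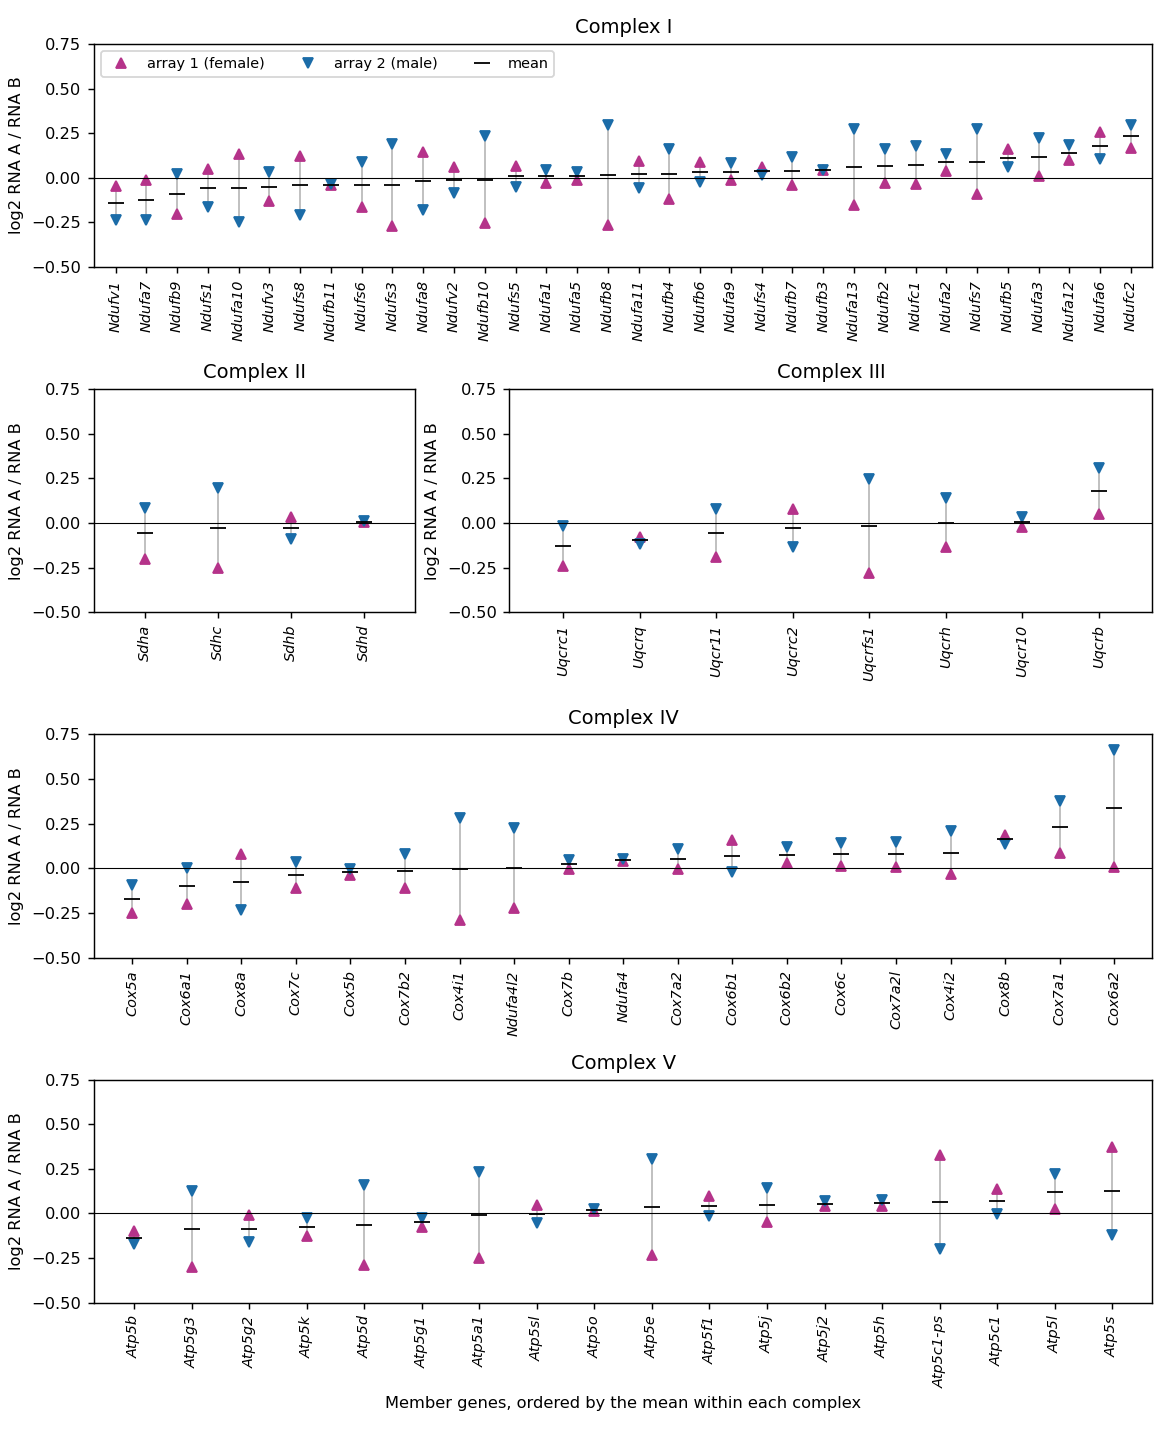
Log2 ratio of RNA A over RNA B for 83 of the 84 members tested, by complex, with upward triangles for array 1 (female), downward triangles for array 2 (male) and a dash for their mean. The triangles often lie on opposite sides of 0, as for Cox4i1 at -0.29 and 0.28.

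Complex II oxidises succinate and also serves the tricarboxylic acid cycle. The flavoprotein Sdha read 6035 (RNA A) against 6926 (RNA B) on array 1 and 6948 against 6553 on array 2, log2 ratios of -0.20 and 0.084. Sdhc, a membrane anchor, had -0.25 and 0.19. Both were thus brighter in the green dye. Sdhb, the iron-sulphur subunit, had 0.032 and -0.092. The anchor Sdhd was level on both arrays, with 11925 against 11880 and 12020 against 11946. The means of the 4 genes were -0.057 ± 0.20, -0.030 ± 0.32, -0.030 ± 0.088 and 0.0072 ± 0.0025 (SD, n = 2) in the same order.

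Complex III hands electrons to cytochrome c. Its median was -0.11 on array 1, 0.056 on array 2 and -0.021 in the mean. Uqcrb, a small subunit next to the quinone site, was the highest, with 12962 (RNA A) against 12536 (RNA B) on array 1 and 16515 against 13321 on array 2. The difference came mostly from array 2, and the mean was 0.18 ± 0.19 (SD, n = 2), with 0.048 on array 1 alone. All 3 probes of Uqcrb gave a positive mean, but they are no independent readings, since a pair of them has 49 bases in common. Uqcr10 came next with 0.0040 ± 0.040 (SD, n = 2). Uqcrc1, a core protein on the matrix side, was the lowest, with 2923 against 3456 and 3587 against 3625. Its RNAs differed on array 1 and were level on array 2, and the mean was -0.13 ± 0.16 (SD, n = 2). Uqcrq followed at -0.078 and -0.12, a mean of -0.097 ± 0.028 (SD, n = 2). Uqcrc2, the partner of Uqcrc1, had a mean of -0.028 ± 0.15 (SD, n = 2), and Uqcrfs1, the Rieske iron-sulphur protein, had -0.28 and 0.25. The others lay between -0.055 (Uqcr11) and 0.0031 (Uqcrh).

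Complex IV reduces oxygen and held both ends of the range. Its 19 tested members had a median of -0.0013 on array 1, 0.11 on array 2 and 0.046 in the mean. Cox5a, a subunit on the matrix side, read 17029 (RNA A) against 20222 (RNA B) on array 1 and 20088 against 21447 on array 2. RNA B was the brighter both times, and the mean of -0.17 ± 0.11 (SD, n = 2) was the lowest of all members (adjusted p = 1.00 by limma, 95% interval -0.62 to 0.28). Cox6a1 followed at -0.20 and -0.0013, a mean of -0.100 ± 0.14 (SD, n = 2). Cox5b, the zinc-binding subunit, had -0.039 and -0.0016. Apart from the genes described below, the other members of the complex lay between -0.077 (Cox8a) and 0.079 (Cox6c).

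Cox4i1, the widespread form of an early-joining nuclear subunit, turned with the array. It read 16488 (RNA A) against 20177 (RNA B) on array 1 and 22271 against 18335 on array 2, so the green dye was brighter on both. Ndufb8 of complex I did the same, with 7139 against 8585 and 10386 against 8456. These were the only members, 2 of 84, at least 1.2-fold brighter in one dye on both arrays, and that dye was green, as for 4.95% of all genes, against 2.52% for red. At 1.5-fold there were 0 members, against 0.187% of all genes in green and 0.415% in red. In Cox4i1 the ratios of -0.29 and 0.28 averaged to -0.0054 ± 0.40 and in Ndufb8 those of -0.27 and 0.30 to 0.015 ± 0.40 (SD, n = 2).

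The tissue isoforms held the highest members of complex IV. Of 8 genes listed, 7 were tested, with a median of 0.0051 on array 1, 0.21 on array 2 and 0.088 in the mean, so the group was level on array 1. On both arrays RNA A was the brighter in 4 of the 7 and RNA B in 0 (all genes 21.6% and 17.4%), and the green dye was in 3. Cox6a2, typical of heart and skeletal muscle, read 60.6 (RNA A) against 60.4 (RNA B) on array 1 and 28.6 against 18.04 on array 2. It was thus level on array 1 and brighter in RNA A on array 2, below the signal threshold of 100. Its mean of 0.34 ± 0.47 (SD, n = 2) rests on array 2, with 0.0051 on array 1 alone. Cox7a1, another isoform of muscle, read 376 against 355 and 480 against 369, a mean of 0.23 ± 0.21 (SD, n = 2). Cox8b, also of muscle and of brown fat, read 733 against 644 and 832 against 757, a mean of 0.16 ± 0.036 (SD, n = 2). Of these, Cox8b was the closest between arrays. Cox4i2, the isoform of lung and low oxygen, had a mean of 0.088 ± 0.17, and Cox6b2 and Cox7b2, known from testis, 0.075 ± 0.064 and -0.015 ± 0.13 (SD, n = 2). Ndufa4l2, a relative of Ndufa4 induced by low oxygen, had -0.22 and 0.23. Cox8c, a testis isoform, was not well above background, with signals from 1.96 to 4.10, and gets no fold. The 7 widespread isoforms had a median of 0.023, and their means ran from -0.100 for Cox6a1 to 0.071 for Cox6b1. Cox7a2l, which joins complexes, had 0.0095 and 0.15.

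Markers of striated muscle had a median of -0.19 on array 1 and -0.93 on array 2, and their means ran from -0.70 to 0.51. All 9 were well above background, 8 had a mean below 0 and the median of the means was -0.51. Their summed signal was 24717 (RNA A) against 26245 (RNA B) on array 1 and 21477 against 42826 on array 2. Of 3 markers of brown fat, Ucp1 and Adipoq were not well above background. Of 3 late spermatid genes, 0 had a mean below 0, and their summed signal was 545 against 39.6 on array 1 and 786 against 39.6 on array 2, carried by Prm1, which limma called. Prm1 had a mean of 5.43 (limma, adjusted p = 8.4e-05), where limma called 0.126% of all genes toward RNA A. Array 1 held female pools of E16.5 ureters, and the source of this signal was not tested. The part of striated muscle or brown fat cells in the ratios of the isoforms was not tested.

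Complex V makes ATP with a catalytic head, a peripheral stalk and a rotor in the membrane. Its 18 members had a median of 0.0014 on array 1, 0.011 on array 2 and 0.027 in the mean. The catalytic beta subunit Atp5b read 44563 (RNA A) against 47750 (RNA B) on array 1 and 44547 against 50137 on array 2. RNA B was the brighter both times, and the mean was -0.14 ± 0.050 (SD, n = 2). Atp5a1, the alpha subunit of the same head, had -0.25 and 0.23, and Atp5c1, the shaft of the rotor, 0.14 and -0.00047. The 3 genes for the ring subunit in the membrane encode the same mature protein. Their means were -0.089 ± 0.30 for Atp5g3, -0.085 ± 0.11 for Atp5g2 and -0.050 ± 0.034 for Atp5g1 (SD, n = 2). The 4 genes of the peripheral stalk, which holds the head in place, had means from 0.018 for Atp5o to 0.058 for Atp5h.

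At the upper end of complex V stood Atp5s, a subunit by its old name only, at 0.37 and -0.12, a mean of 0.13 ± 0.35 (SD, n = 2). The membrane subunit Atp5l read 29881 (RNA A) against 29338 (RNA B) on array 1 and 36189 against 31104 on array 2, a mean of 0.12 ± 0.14 (SD, n = 2). RNA A was the brighter both times, mostly on array 2. The 6 probes of Atp5l had means from 0.068 to 0.13, and 5 of them have stretches of 15 or more bases in common. Atp5sl had 0.049 and -0.055, and the pseudogene Atp5c1-ps 0.33 and -0.20. The others lay between -0.075 (Atp5k) and 0.055 (Atp5j2).

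A list of 23 subunits, called core here, had lower means than the other members, given as a description without a test. The comparison was chosen after seeing the data. The list, which includes Cox5a, the lowest of all members, was drawn up with earlier results of these data known. It held the 7 of complex I, the 4 of complex II, Uqcrc1, Uqcrc2, Uqcrfs1, Atp5a1, Atp5b, Atp5c1, the genes for the ring, and Cox4i1, Cox5a and Cox5b, which are accessory subunits, the catalytic core of complex IV being encoded in the mitochondria. Of these, 20 had a mean below 0, with a median of -0.038, while 17 of the 61 other members had a mean below 0, with a median of 0.037. Over all genes 48.1% had a mean below 0. On both arrays RNA B was the brighter in 7 core subunits and RNA A in 1, Sdhd. Among the other members the counts were 5 and 20 (all genes 17.4% and 21.6%). The median of the core subunits was -0.092 on array 1 and -0.0016 on array 2, and that of the other members 0.0051 and 0.079. Both medians thus depend on the array. On array 1 alone 16 of 23 core subunits and 30 of 61 others were below 0, and on array 2 alone 13 and 16. The median of the mean log2 signal was 14.2 for core subunits and 13.9 for the others, and the median GC content of the probes was 41.7% for both.

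**Figure D3:**
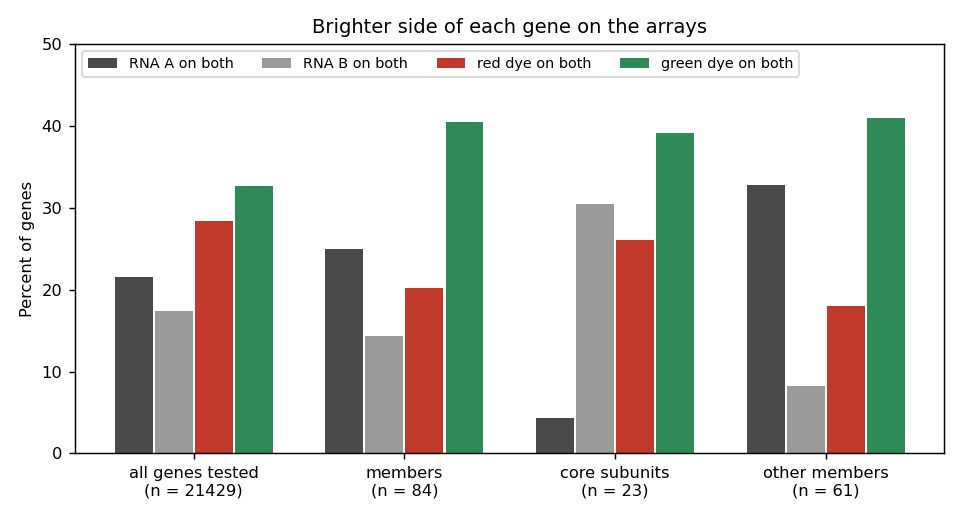
Share of genes, in percent, that on both arrays were brighter in RNA A, RNA B, the red dye or the green dye, for all genes tested, all members, the 23 core subunits and the 61 other members. RNA B on both arrays took 30.4% of the core subunits, 8.2% of the other members and 17.4% of all genes. RNA A took 4.35%, 32.8% and 21.6% of them.

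Probes of the same gene mostly gave close values, with some exceptions. In 29 members with more than 1 probe, the SD of the mean ratio over probes had a median of 0.030. The widest range was that of Atp5j, from -0.23 to 0.048, where the lower value comes from a dim probe with signals from 16.8 to 22.4, and the probes of Cox7c ran from -0.050 to 0.13. Ndufb11, an X-linked accessory subunit of complex I, was the only member with probes on opposite sides of 0 on both arrays. The first of its probes shown above had -0.041 and -0.037 on the arrays and the second had 0.25 and 0.024.

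The mitochondrial genome supplies further subunits of the same complexes. Its 10 genes on the array had a median of 0.25 on array 1 and -0.076 on array 2, an order opposite to that of the nuclear members. ATP8 was the highest in the mean at 0.28 ± 0.11, then ND3 at 0.16 ± 0.29, and ND6 the lowest at -0.12 ± 0.12, then ND5 at -0.099 ± 0.28 (SD, n = 2). Assembly factors build the complexes without being part of them. The 45 tested had a median of 0.15 on array 1, -0.032 on array 2 and 0.055 in the mean. The red dye was the brighter on both arrays in 22 of them, the green dye in 6, RNA A in 15 and RNA B in 2 (all genes 28.4%, 32.6%, 21.6% and 17.4%). The highest were Tmem126b at 0.26 ± 0.25 and Ndufaf5 at 0.21 ± 0.41 and the lowest Cox10 at -0.18 ± 0.13 and Bcs1l at -0.16 ± 0.99 (SD, n = 2). Proteins of the mitochondrial ribosome translate the mitochondrial transcripts, and their 77 genes had a median of 0.043 on array 1, 0.046 on array 2 and 0.041 in the mean. Mrpl42 at 0.19 ± 0.19 and Mrps10 at 0.18 ± 0.082 stood at the top and Mrpl2 at -0.24 ± 0.57 and Mrpl4 at -0.15 ± 0.27 at the bottom (SD, n = 2). Proteins of the cytoplasmic ribosome (81 genes) had medians of 0.024 and -0.0096 on the arrays and -0.0092 in the mean, the highest being Rps27a at 0.17 ± 0.26 and Rpl7 at 0.16 ± 0.15 and the lowest Rps3a1 at -0.15 ± 0.33 and Rps4l at -0.14 ± 0.13 (SD, n = 2). Of the genes in these 4 lists limma called 0, and 0 had an unadjusted p under 0.05.

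Among regulators of mitochondrial biogenesis the 17 tested genes had a median of 0.041 on array 1, 0.039 on array 2 and 0.0073 in the mean. Tfam, which packages and transcribes mitochondrial DNA, was the highest at 0.21 and 0.11, a mean of 0.16 ± 0.071, and Ssbp1, which binds single strands of it, had 0.15 ± 0.057 (SD, n = 2). The coactivator Ppargc1b was the lowest at -0.64 and -0.054, a mean of -0.35 ± 0.42, and the nuclear receptor Esrra had -0.79 and 0.13, a mean of -0.33 ± 0.66 (SD, n = 2). Both low values rest on array 1. The 17 genes of the tricarboxylic acid cycle, which supplies NADH and succinate, had a median of 0.056 on array 1, -0.093 on array 2 and 0.0032 in the mean. Idh2 at 0.076 ± 0.21 and Idh3g at 0.069 ± 0.24 were the highest and Ogdh at -0.19 ± 0.13 and Dlst at -0.067 ± 0.089 the lowest (SD, n = 2). Among other proteins of the chain, cytochrome c1 (Cyc1) had -0.21 ± 0.34, Etfdh, which feeds electrons from fatty acid oxidation, -0.061 ± 0.13 and the small ATP synthase subunit Atp5md 0.057 ± 0.016 (SD, n = 2). The testis form of cytochrome c, Cyct, had 1.86 on array 1 and 0.069 on array 2.

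Glycolysis, the other route to ATP, held 1 gene past the fold change filter. Ldhb, the lactate dehydrogenase of oxidative tissues, had -0.88 and -0.59, a mean of -0.73 ± 0.21 (SD, n = 2; adjusted p = 0.49 by limma). The 17 glycolytic genes had a median of -0.25 on array 1, 0.078 on array 2 and -0.027 in the mean. Of them, 9 were brighter in the green dye on both arrays (all genes 32.6%). Eno2 was next at -0.25 ± 0.18, and the highest were Hk2 at 0.15 ± 0.49 and Ldha at 0.093 ± 0.39 (SD, n = 2).

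**Figure D4:**
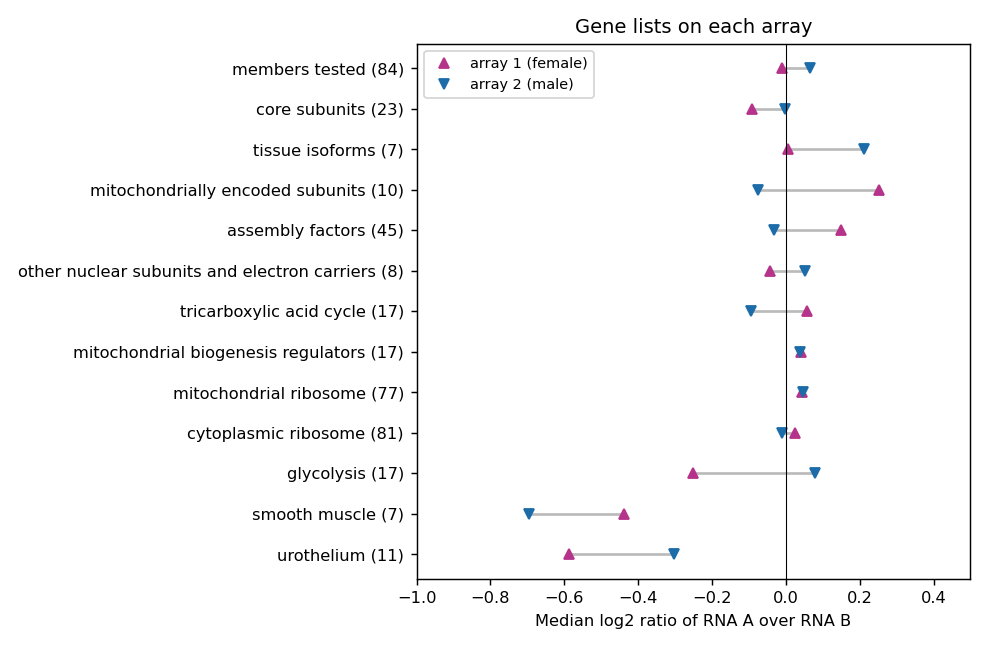
Median log2 ratio of RNA A over RNA B of each gene list on array 1 (upward triangles, female) and array 2 (downward triangles, male), with the number of genes tested in parentheses. The nuclear members lie at -0.010 and 0.066, close to 0 beside smooth muscle at -0.44 and -0.69 and urothelium at -0.59 and -0.30.

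The tissue markers differed between the RNAs. All 7 smooth muscle markers had a mean below 0, with a median of -0.58 and a summed signal of 77447 (RNA A) against 98639 (RNA B) on array 1 and of 73776 against 129071 on array 2. Of the 11 urothelium markers, which join uroplakins and epithelial genes such as Cdh1 and Krt8, 9 had a mean below 0, with a median of -0.55. Their means ran from -1.69 to 0.091, and 4 lay within 1.2-fold. Their sums were 110666 against 170005 and 125746 against 167867, and limma called 2 of them at an adjusted p under 0.05. Of the smooth muscle markers limma called 0, and 6 had an unadjusted p under 0.05. The 4 liver markers summed to 6196 against 5928 on array 1 and 1956 against 5110 on array 2. All 4 had a mean below 0, with a median of -0.62, and 2 had an unadjusted limma p under 0.05. Of 6 nephron markers Nphs1, Slc12a1 and Umod were not well above background. The other 3 were dim, with a median log2 signal of 3.77, and brighter in RNA B on both arrays (all genes 17.4%). The median of their means was -1.15, limma called 1, and 2 had an unadjusted p under 0.05. All 6 red blood cell markers were well above background, 0 of them had a mean below 0, and their median was 0.073. In whole ureters, fewer cells of a type and less RNA per cell cannot be told apart, and the part of tissue composition in the ratios of the chain was not tested.

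Promoters of the members held motifs of known regulators of respiratory genes. RefSeq promoters of GRCm38.p6, from 250 bases before to 50 bases after a start, were matched for 69 members and searched on both strands. Members on chromosome 18, Atp5a1 and Ndufa2, were left out of this search, while the set of all genes was not cut by chromosome. The NRF1 motif, of 10 bases with 1 free, was found in 17 of the 69 (24.6%) and in 5.19% of 27025 genes. The motif CCGGAAG of GABPA and other ETS factors was found in 16 (23.2%, all genes 9.93%), and AAGATGGCG of YY1 in 8 (11.6%, all genes 1.64%). These 3 motifs were more frequent in members than in all genes. GGGCGG, bound by SP1, was about as frequent in members as elsewhere, at 40.6% and 38.2%. TCAAGGTCA, bound by ESRRA, was found in 2 members, Atp5g3 and Sdhd (2.9%, all genes 0.466%), and TATAAA in 7 (10.1%, all genes 15.7%). The PPAR direct repeat, AGGTCA repeated after 1 free base, was found in 0 members and in 0.0481% of all genes, which says only that these letters are not in these windows. In 1 place a match of CCGGAAG overlapped one of GGGCGG. The median GC content was 57.3% in the member promoters and 52.7% in all.

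**Figure D5:**
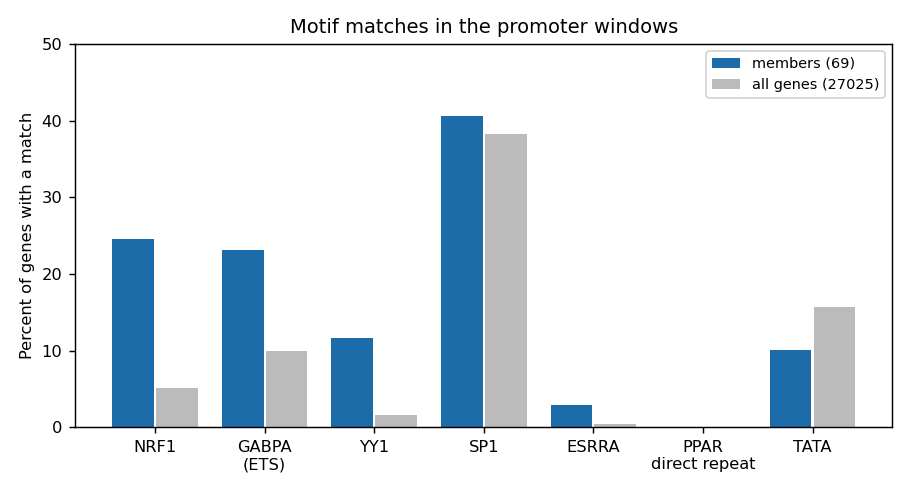
Percent of genes with at least 1 match of each motif in the promoter windows, for 69 members (blue) and 27025 genes (grey). The NRF1, GABPA and YY1 motifs were found in 24.6%, 23.2% and 11.6% of members, against 5.19%, 9.93% and 1.64% of all genes.

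The mean log2 ratios were set beside these motifs without a test. The 35 members with an NRF1, GABPA or YY1 motif had a median of 0.010 and the 34 without one 0.012. Taken singly, members with the motif and without it had medians of 0.0072 and 0.027 for NRF1, 0.0051 and 0.015 for GABPA and 0.043 and 0.0083 for YY1. For SP1 they were 0.013 and 0.0083, for TATAAA (7 members) 0.091 and 0.0083 and for ESRRA (2 members) -0.041 and 0.015. The 250 bases before the start of 5 members follow, taken from windows that no annotated gene of the build reaches into and chosen to set members with a mean below 0 (Cox6a1, Sdhb, Atp5b) beside high ones (Ndufc2, Cox7a1). Capitals mark motif matches.
Cox6a1, chr5:115348959-115349208, minus strand: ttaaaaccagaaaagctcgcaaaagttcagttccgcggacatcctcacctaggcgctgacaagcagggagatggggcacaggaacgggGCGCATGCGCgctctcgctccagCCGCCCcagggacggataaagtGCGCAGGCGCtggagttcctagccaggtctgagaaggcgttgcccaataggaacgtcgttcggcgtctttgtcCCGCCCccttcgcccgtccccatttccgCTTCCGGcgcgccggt
Sdhb, chr4:140961021-140961270, plus strand: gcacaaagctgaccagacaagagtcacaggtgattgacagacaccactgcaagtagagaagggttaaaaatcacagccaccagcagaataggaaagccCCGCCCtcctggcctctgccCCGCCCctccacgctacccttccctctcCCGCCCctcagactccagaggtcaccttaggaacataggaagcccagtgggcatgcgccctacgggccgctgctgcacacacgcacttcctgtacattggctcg
Atp5b, chr10:128083057-128083306, plus strand: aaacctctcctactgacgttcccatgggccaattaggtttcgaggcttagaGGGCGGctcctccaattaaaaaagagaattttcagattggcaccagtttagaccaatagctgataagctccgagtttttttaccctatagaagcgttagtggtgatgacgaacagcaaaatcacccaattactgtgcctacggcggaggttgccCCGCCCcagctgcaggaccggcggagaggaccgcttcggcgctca
Ndufc2, chr7:97399753-97400002, plus strand: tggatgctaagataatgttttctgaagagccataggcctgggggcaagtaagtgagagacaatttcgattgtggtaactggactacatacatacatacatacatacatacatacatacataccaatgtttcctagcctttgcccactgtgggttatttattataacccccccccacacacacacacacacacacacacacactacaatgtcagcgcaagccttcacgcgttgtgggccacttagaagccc
Cox7a1, chr7:30183921-30184170, plus strand: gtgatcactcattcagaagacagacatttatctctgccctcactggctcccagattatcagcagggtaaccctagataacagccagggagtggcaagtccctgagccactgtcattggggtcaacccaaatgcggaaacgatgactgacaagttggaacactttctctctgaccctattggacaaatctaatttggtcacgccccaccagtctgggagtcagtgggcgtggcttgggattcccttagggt
Cox6a1 holds the NRF1 motif at 162 and 117 bases, the SP1 motif at 139 and 44 bases and the GABPA motif at 16 bases before the start. In Sdhb the SP1 motif begins at 152, 132 and 104 bases and in Atp5b at 199 and 45 bases before the start. The GABPA motif of Sdhb begins 7 bases after the start, outside the bases shown. Ndufc2 and Cox7a1 hold none of the motifs searched.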

How the data were processed

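Sex-sorted pools of ureters from E16.5 mouse embryos were compared on 2 dual-colour oligonucleotide arrays (replicate 1 female, replicate 2 male), which shared 1 slide and 1 scan. Per the file headers, the deposited processed intensities come from Agilent Feature Extraction 10.7.3.1, which subtracted the background, set surrogates near it and normalised the dyes linearly and by LOWESS; ratios of dim probes depend on these steps. The deposited log10 ratios were compared with the intensities to establish the dyes (equal within a tolerance of 0.001 at 88.9% of the spots). The authors' deposited table holds signed fold changes, a score whose column headers state no direction (the sample titles name the comparison as Pparg-cKO vs control), and its correlation with RNA A over RNA B was 0.997 on each array (Pearson).

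Outlier and hand-flagged spots were left out (5705 on array 1, 5579 on array 2), log2 intensities were averaged over spots, and the probe with the highest mean signal stood for its gene. Being well above background required a share of 0.5 of the kept spots. limma 3.58.1 in R 4.3.3 (lmFit with an intercept, eBayes) was fitted to 21429 genes, with Benjamini-Hochberg adjustment at 0.05. The number of arrays limits the precision. In data simulated for 10000 genes with the spread between arrays measured over all genes, limma recovered 0% of genes changed by 1.5-fold and 98% of those changed by 3-fold. Named were the subunits of the core list, tissue isoforms, the 2 highest and 2 lowest genes of each complex and list, members past a threshold, members caught by name only, genes whose probes disagreed and Pparg; Cox4i1 and Ndufb8 were set apart, and other genes ending a range named, after their values were seen. A core subunit of complex I is counted in the lists and not reported by itself here. The members and lists were chosen with earlier results of these data known. RefSeq names of GRCm38.p6 were found for 28328 of 39429 probes. Alternatives changed the centring, normalisation, background correction, values, probe choice, filters, thresholds and model.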

Additional observations from a re-analysis of the deposited data

Results flagged for a closer look

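Cox4i1 and Ndufb8 moved in opposite directions on the female and the male array by at least 1.2-fold on each. The difference of the arrays' log2 ratios divided by 2 was -0.29 for Cox4i1 and -0.28 for Ndufb8. Each direction rests on 1 array, the difference was not tested, and sex and dye cannot be told apart in it.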

How the results depend on the processing

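The members past the fold change filter numbered 0 with 1.2-fold or 2-fold, without an intensity threshold, with each other processing and with either array alone, and limma called 0 of them in each of 9 fits. Over all genes limma called 67 (27 toward RNA A, 40 toward RNA B), but 1 after normexp with an offset of 50 and 0 with the deposited fold changes or without the filter on dim probes, so these fits say little about the members. The fit of separate channels with no replicate block called 0 members and 1 gene in all; pools of the same number share sex and array, and no further pairing was examined. Leaving out an array left limma no residual degrees of freedom, so only values could be had. The members' median was -0.010 without replicate 2 and 0.066 without replicate 1. The median of complex V, 0.027, was 0.0148 with centring, 0.0168 with loess, 0.0042 with normexp, 0.0074 over all probes, 0.0014 without replicate 2 and 0.0112 without replicate 1. The core subunits with a mean below 0 numbered 18 to 21 under the other processings, a comparison chosen after seeing the data, 13 without replicate 1 and 16 without replicate 2. Among 43 named members, centring, loess and normexp moved Ndufb11 and Sdhd by more than the spread between arrays, the deposited fold changes Ndufb11, and the mean over all probes Atp5g1 and Ndufb11. After normexp the highest member was Ndufc2 at 0.21 in place of Cox6a2.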
